A study of Mus musculus with 14 samples.

Results

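The cells described here are TR.1, a mouse lung adenocarcinoma line that carries a Trim24-Ret fusion, held in 100 nM selpercatinib for 1, 2, 3 or 5 days. Selpercatinib is an inhibitor of the RET kinase. The comparison sets the late cultures, days 3 and 5, against the early cultures, days 1 and 2, all 4 under drug. It covers 4 of the 14 libraries of the series, 2 late and 2 early, with 1 library for each day. Genes entered with at least 1 CPM (read counts scaled to a common library size) in at least 2 of the 4 libraries, which 13218 of 55415 listed genes did. Alongside them stand 4 libraries of the same line in DMSO, the vehicle, on the same days. The other libraries are 2 of selpercatinib-resistant cultures kept in 500 nM drug, 2 of pralsetinib-resistant cultures, and 2 of their parental control in DMSO. All libraries come from 1 cell line. The labels name no separate cultures within a day, so every p-value below measures spread between single libraries, part of which may be technical.

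RET fusions signal without ligand, chiefly through the RAS, RAF, MEK and ERK kinase cascade and through PI3K. ERK activity holds up transcription of its own inhibitors, among them the DUSP phosphatases and Sprouty proteins, and of growth genes such as cyclin D1. Cells deprived of such an oncogenic kinase commonly leave the cell cycle over days, and the genes of DNA replication and mitosis, which are switched on by E2F factors and released from the DREAM and MuvB complexes in cycling cells, are then transcribed less.

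The 4 selpercatinib libraries held 78.5, 77.1, 89.8 and 81.5 M counts on days 1, 2, 3 and 5, and the 4 DMSO libraries between 68.6 and 78.6 M. At that depth a count of 3 corresponds to between 0.0334 and 0.0389 CPM in the selpercatinib libraries, before the TMM scaling that all values below carry. Such limits cover counting error only. Of 10 markers of lung adenocarcinoma epithelium, 8 passed the filter. Epcam, an epithelial adhesion protein, had 392, 426, 432 and 442 CPM on days 1, 2, 3 and 5, and Nkx2-1, the lung lineage factor, had 6.72, 4.85, 4.86 and 3.92 CPM. The surfactant gene Sftpc was at 0 in all 4 drug libraries and Napsa, another alveolar type 2 marker, did not exceed 0.0264 CPM. Summed levels of the 10 markers were 12405, 11634, 11441 and 12128 CPM on days 1, 2, 3 and 5 under selpercatinib and 8649, 8839, 6808 and 6695 CPM in DMSO.

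Ret itself had 42.8, 37.5, 31.9 and 27.0 CPM in the selpercatinib libraries of days 1, 2, 3 and 5, and 58.0, 54.6, 49.7 and 47.6 CPM in the DMSO libraries. Trim24, the fusion partner, had 55.0, 50.9, 45.9 and 39.9 CPM under drug and 77.1, 72.1, 77.9 and 69.0 CPM in DMSO. Both were lower on each later drug day. Reads of the fusion are not told apart here from reads of the normal genes. The fitted slope of Ret under drug was -0.17 log2 per day (SE 0.026, adjusted p = 0.00113), and that of Trim24 was -0.12 log2 per day (SE 0.024, adjusted p = 0.00416). Slopes here are log2 changes per day from edgeR's quasi-likelihood test on the 4 selpercatinib libraries, with day as a number and p-values adjusted over all 13218 genes by the Benjamini-Hochberg method.

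Set as 2 groups, late against early, no gene passed an adjusted p of 0.05 in edgeR's quasi-likelihood test (0 of 13218). At an unadjusted p under 0.05 there were 4748 genes (35.9% of those tested), and the lowest adjusted p was 0.0955. The libraries within a group differ in day, so a steady change adds to the spread within each group. Late and early values did not overlap for 4505 genes that were higher late (34.1%) and 4970 that were lower late (37.6%). DESeq2 called 2857 genes in the same comparison, 1483 higher and 1374 lower. limma on log2(CPM + 1) called 0, with 4791 at an unadjusted p under 0.05. Without the filter edgeR called 1674 genes, and without the day 3 library it called 1179.

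The slope over days, which treats the arm as a series, called 5750 genes (43.5%), of which 2730 rose (20.7%) and 3020 fell (22.8%). At an unadjusted p under 0.05 there were 6872 (52%). Over the 4 days from day 1 to day 5 the fitted change reached 2-fold for 747 of the rising and 791 of the falling genes, and 4-fold for 162 and 200. When the spread was shared with the DMSO libraries the slope called 1893 genes. It called 3612 without the day 1 library. The p-value of a slope measures the scatter of 4 single libraries around a fitted line. The batch field of the labels holds the day, with 1 library per day in the arm. A change with day within the arm therefore cannot be told apart from a difference between batches. The values that follow use the slope, and the change between late and early is a description. Each count of list members that rose or fell is to be read beside the 20.7% and 22.8% of all genes.

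Under selpercatinib the transcriptome moved in small steps, no one of which stood out. Between libraries of neighbouring days, 61 genes differed at least 2-fold from day 1 to day 2, 28 from day 2 to day 3 and 93 from day 3 to day 5, on log2(CPM + 1). Between day 1 and day 5 the number was 1097 (8.30% of 13218). In DMSO the same steps held 33, 556 and 98 genes, and 1690 (12.6% of 13368) between day 1 and day 5. The largest step of the DMSO arm lay between days 2 and 3, and the step from day 3 to day 5 spans 2 days. The median absolute log2 difference over 10668 genes with a mean of at least 5 CPM was 0.113, 0.133 and 0.111 for the 3 drug steps and 0.157, 0.258 and 0.138 for the 3 DMSO steps.

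**Figure D1:**
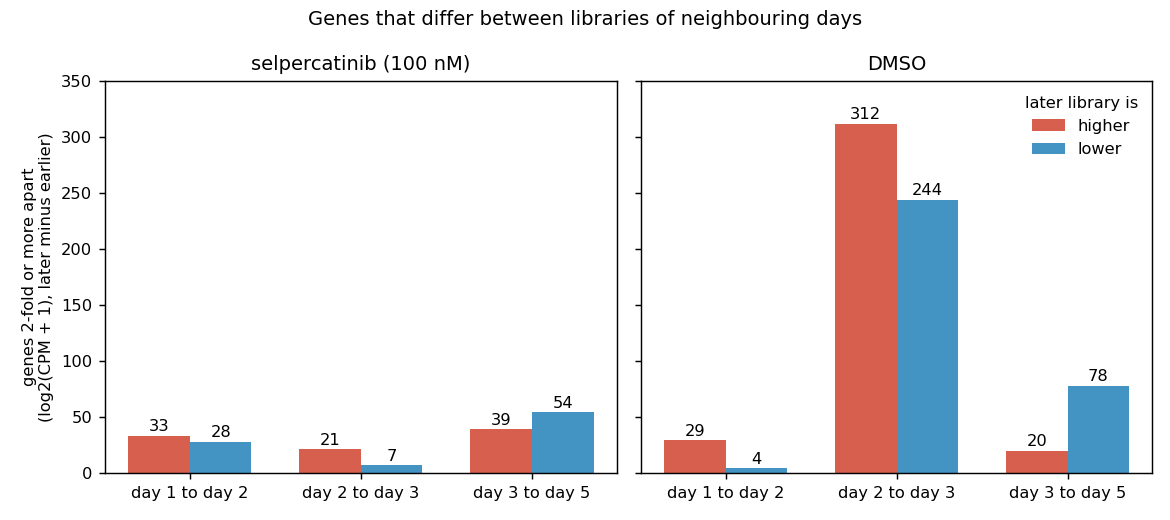
Number of genes (y axis) that differed at least 2-fold on log2(CPM + 1) between libraries of neighbouring days (x axis), in the selpercatinib arm (left, 13218 genes) and the DMSO arm (right, 13368 genes), with genes higher in the later library in red and lower in blue. The tallest bars are those of day 2 to day 3 in DMSO, 312 higher and 244 lower, against 21 higher and 7 lower for the same step under selpercatinib.

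Genes were then sorted by fixed rules into shapes over the days, as a description without a test. A progressive change, in which every step had the same sign and a size of at least 0.2 log2 units and together they reached 2-fold, held for 383 rising (2.9%) and 452 falling genes (3.42%). All 835 of these were also called by the slope, which reads the same 4 libraries and so is no separate evidence for the pattern. By the same rules 332 genes rose progressively and 271 fell progressively in DMSO (2.48% and 2.03% of 13368). Of the 383 rising under drug, 308 were tested late against early in DMSO, where 219 were called higher and 4 lower. Of the 452 falling, 442 were tested there, and 318 were called lower and 12 higher. Over all genes tested in DMSO 17% were called higher and 16.1% lower. Most of these genes thus moved the same way without drug. An early change, made by day 2 and then held, was found in 5 genes, 2 higher (0.0151%) and 3 lower (0.0227%). A transient change that had returned by day 5 was found in 4 genes, all higher (0.0303%). A step at day 5 alone was found in 2 genes, both higher (0.0151%). In DMSO the early rule held for 3 genes higher (0.0224%) and 1 lower (0.00748%), the transient rule for 4 higher (0.0299%) and 4 lower (0.0299%), and the day 5 step for 2 higher (0.015%) and 3 lower (0.0224%). The 4 days lay within 0.5 log2 units of each other for 9226 genes (69.8%), against 6595 of 13368 genes in DMSO (49.3%).

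Differences between drug and DMSO were already present on day 1. Of the 13218 genes that passed the filter under drug, 907 were at least 2-fold higher and 367 at least 2-fold lower under selpercatinib than in DMSO. Genes that passed the filter only in the DMSO libraries were not counted. That leaves out genes lost under drug, so the sizes of the 2 counts cannot be compared. Of the 907, 383 stayed level to day 5, 154 were at least 2-fold further up on day 5 than on day 1, and 50 were at least 2-fold back. Of the 367, 125 stayed level, 111 were at least 2-fold further down and 4 were at least 2-fold back. The counts that stayed level are to be read beside the 69.8% of all genes that were level.

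The mitotic genes fell together, at every step. All 26 members of the mitosis list fell with day, all 26 progressively, against 22.8% of all genes tested falling. Their median slope was -0.55 log2 per day, beside a median of -0.0047 over all genes. Mki67, the proliferation marker, had 347, 208, 138 and 54.0 CPM under selpercatinib on days 1, 2, 3 and 5, and 699, 496, 199 and 67.8 CPM in DMSO. Cdk1, the kinase that drives entry into mitosis, had 119, 93.7, 63.7 and 38.4 CPM under drug and 210.1, 183, 96.3 and 54.2 CPM in DMSO. Its slope was -0.42 log2 per day (SE 0.027, adjusted p = 7.89e-06). Kif20a, a kinesin of cytokinesis, had 82.4, 56.0, 29.5 and 13.2 CPM under drug, 162, 131, 45.4 and 14.8 CPM in DMSO and a slope of -0.68 log2 per day (SE 0.033, adjusted p = 2.23e-06). Levels under drug on day 1 were already below those in DMSO for both genes, and each later library was lower than the one before it. The checkpoint kinase gene Ttk had a slope of -0.51 log2 per day (SE 0.036, adjusted p = 1.43e-05), and Aurka, a spindle pole kinase, one of -0.44 log2 per day (SE 0.028, adjusted p = 7.42e-06). The DMSO cultures lost these transcripts too, with 25 of 26 called lower late against early there (16.1% of all genes tested in DMSO were called lower). The test of the difference between arms with the day as a block called 3 of the 26 members, Ccna2, Cdca3 and Mki67, all with a smaller fall under drug (1.08% of 13941 genes were called in that direction). Without the block none of the 26 was called.

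The replication genes fell as well. Of 26 members, 25 fell with day, beside 22.8% of all genes, 20 of the list progressively, with a median slope of -0.34 log2 per day. In DMSO 25 of 26 were called lower late against early, beside 16.1% of all genes tested there. The median late minus early change was -0.87 log2 units under drug and -1.38 log2 units in DMSO. Rrm2, the small subunit of ribonucleotide reductase, had 119, 73.3, 35.4 and 14.9 CPM under selpercatinib and 284, 181, 31.6 and 21.4 CPM in DMSO. Its slope was -0.76 log2 per day (SE 0.037, adjusted p = 2.08e-06). With the day as a block its change differed between the arms by 1.11 log2 units (SE 0.21, adjusted p = 0.0461), a smaller fall under drug, as did those of Rrm1 and Prim1. Without the block the difference was called for none of these genes, with an edgeR adjusted p of 0.322 for Rrm2. Mcm5, a subunit of the replicative helicase, had 93.4, 66.0, 44.0 and 21.4 CPM under drug and 194, 148, 47.3 and 37.2 CPM in DMSO, with a slope of -0.54 log2 per day (SE 0.025, adjusted p = 1.86e-06). Gins1, another helicase component, had 13.4, 9.35, 5.23 and 2.93 CPM under drug and a slope of -0.56 log2 per day (SE 0.05, adjusted p = 4.73e-05). Both Rrm2 and Mcm5 were lower at every step in both arms, and in DMSO their largest drop lay between days 2 and 3. The clamp gene Pcna had 146, 123, 95.1 and 79.1 CPM under drug, a slope of -0.22 log2 per day (SE 0.028, adjusted p = 0.000318). Rfc3, a clamp loader subunit, was the member that was not called, with 26.2, 24.5, 23.3 and 22.1 CPM and a slope of -0.06 log2 per day (SE 0.027, adjusted p = 0.105). Cdt1, which licenses replication origins, had 40.0, 28.9, 23.3 and 16.9 CPM under drug and 78.5, 83.1, 87.2 and 73.5 CPM in DMSO. It fell under drug with a slope of -0.30 log2 per day (SE 0.032, adjusted p = 0.000121), and was not called in DMSO, where late minus early was -0.0085 log2 units (adjusted p = 0.965). The difference between the arms was not called, at -0.76 log2 units (adjusted p = 0.0762) with the day as a block.

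The promoters of these 2 groups are shown because their members move together under drug. The sequences are RefSeq promoters of build GRCm38.p6 (mm10), 250 bases before to 50 bases after the start, read 5′ to 3′ on the strand of the gene. CCAAT was found on either strand in 20 of 22 mitosis promoters in the table (90.9%), beside 41.1% of 27025 genes, and TTTGAA in 16 of 22 (72.7%), beside 20.2%. TTTGAA is the core of the cell cycle homology region bound by MuvB complexes. The E2F letters TTTCGCGC or TTTGGCGC were found in 9 of 21 replication promoters (42.9%), beside 0.929% of genes. The letters of CCAAT and TTTGAA can share a base where they abut, which they do not in the promoters printed, and the 2 E2F spellings can overlap on opposite strands. A match describes letters only. Both lists were written to hold genes of mitosis and replication, so the shares say nothing about the fall. In Cdk1 (chr10:69352863-69353162, minus strand) and Aurka (chr2:172370521-172370820, minus strand) the capitals mark CCAAT or its reverse complement and TTTGAA or its reverse complement. In Mcm5 (chr8:75109259-75109558, plus strand) they mark a pair of overlapping E2F matches, one on each strand. The 3 genes were picked for display after the motif search.
Cdk1: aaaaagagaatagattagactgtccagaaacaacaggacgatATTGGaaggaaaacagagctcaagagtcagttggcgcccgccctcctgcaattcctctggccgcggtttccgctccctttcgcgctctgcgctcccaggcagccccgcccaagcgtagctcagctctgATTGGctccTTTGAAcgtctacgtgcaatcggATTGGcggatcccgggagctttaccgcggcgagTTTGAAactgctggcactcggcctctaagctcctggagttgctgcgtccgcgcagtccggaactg
Aurka: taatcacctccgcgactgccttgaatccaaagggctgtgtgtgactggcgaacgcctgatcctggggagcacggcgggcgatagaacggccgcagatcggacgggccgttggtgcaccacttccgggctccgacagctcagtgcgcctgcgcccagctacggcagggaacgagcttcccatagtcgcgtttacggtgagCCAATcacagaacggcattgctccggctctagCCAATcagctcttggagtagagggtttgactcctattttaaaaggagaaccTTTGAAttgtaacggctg
Mcm5: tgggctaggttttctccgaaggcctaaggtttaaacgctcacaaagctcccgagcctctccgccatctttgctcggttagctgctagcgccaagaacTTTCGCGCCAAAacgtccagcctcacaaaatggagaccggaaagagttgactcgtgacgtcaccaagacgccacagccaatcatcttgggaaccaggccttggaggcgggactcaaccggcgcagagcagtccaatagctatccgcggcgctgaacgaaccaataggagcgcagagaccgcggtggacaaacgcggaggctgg

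**Figure D2:**
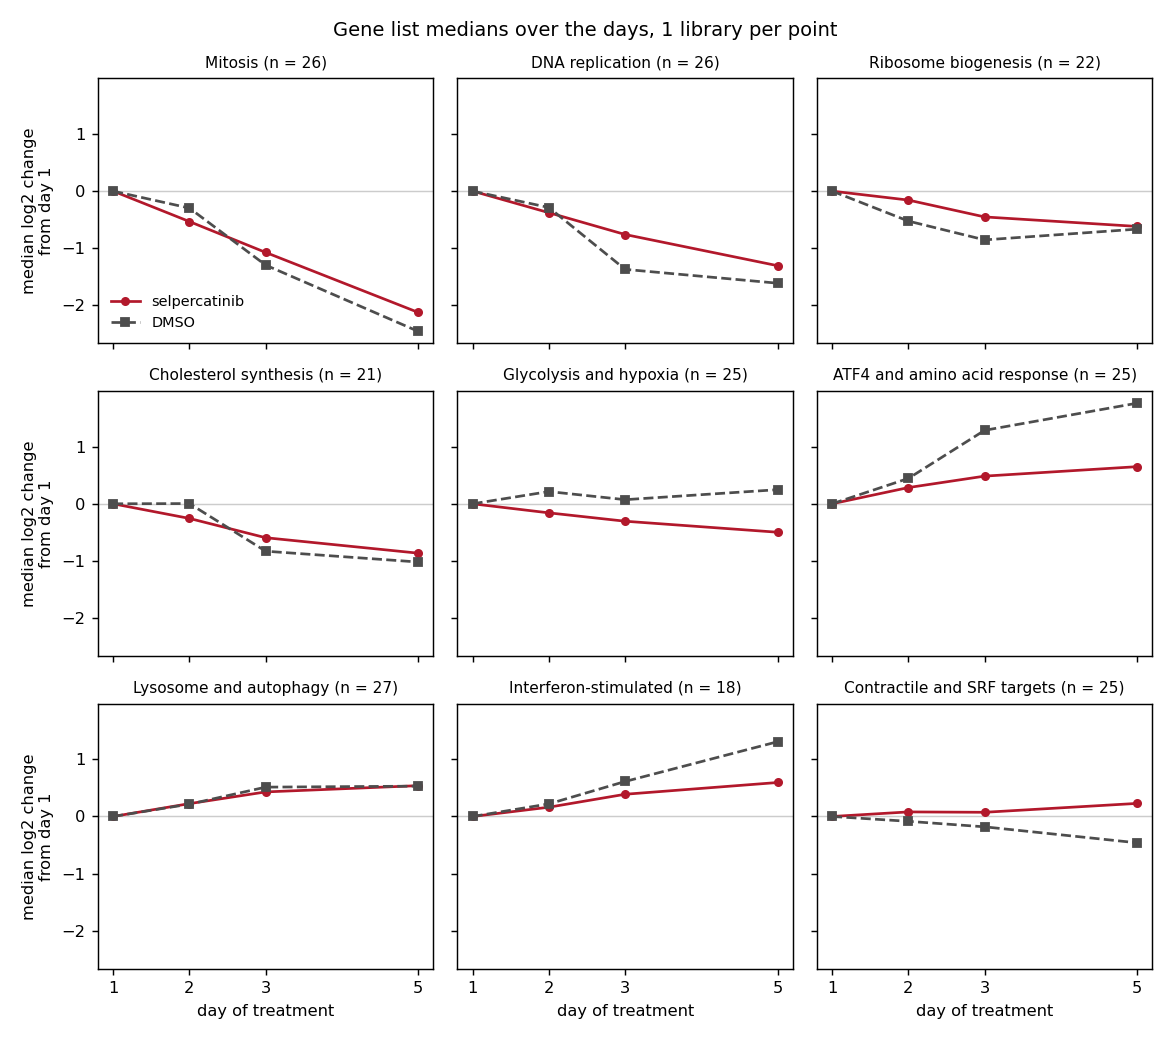
Median log2 change from day 1 of the members of 9 gene lists (y axis, log2(CPM + 1)) over the days of treatment (x axis), with selpercatinib as red circles and solid lines and DMSO as grey squares and broken lines, 1 library per point and n the members that passed the filter. The mitosis median reached -2.13 on day 5 under selpercatinib and -2.46 in DMSO, while the contractile median was 0.23 under selpercatinib and -0.46 in DMSO.

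Genes of ribosome production and of cholesterol synthesis also fell with day. Of 22 ribosome biogenesis genes 19 fell and none rose, with a median slope of -0.16 log2 per day. In DMSO 12 of the 22 were called lower late against early and none higher. Ncl, the abundant nucleolar protein nucleolin, had 1294, 1069, 739.8 and 649.8 CPM under selpercatinib and 2809, 1813, 1501 and 1381 CPM in DMSO. Wdr43, a factor of small subunit assembly, had 161, 151, 101 and 94.3 CPM under drug and 295, 211, 167 and 186 CPM in DMSO. For both genes the 2 late drug values were below the 2 early ones. Wdr43 had the lowest p of all genes in the late against early comparison, where it differed by -0.68 log2 units (SE 0.078, adjusted p = 0.0955), which is not a call. Nop58, a core protein of box C/D ribonucleoproteins, had a slope of -0.25 log2 per day (SE 0.037, adjusted p = 0.000736). Dkc1, the pseudouridine synthase of the H/ACA class, had 98.5, 74.1, 49.4 and 41.1 CPM under drug and a slope of -0.32 log2 per day (SE 0.04, adjusted p = 0.000329).

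Of 21 cholesterol genes 20 fell, with a median slope of -0.23 log2 per day. Cyp51, a demethylase of the sterol pathway, had 445, 369, 241 and 185 CPM under selpercatinib and 403, 372, 185 and 148 CPM in DMSO, with a slope under drug of -0.33 log2 per day (SE 0.035, adjusted p = 0.000123). Insig1, a sterol-regulated brake on the pathway, had 186, 201, 117 and 101 CPM under drug and 206, 295, 172 and 113 CPM in DMSO. The day 2 library was the highest of the drug arm for Insig1, and the slope was -0.26 log2 per day (SE 0.05, adjusted p = 0.0033). In DMSO 20 of the 21 were called lower late against early. Dhcr7, the last enzyme of the branch that ends in cholesterol, had 62.3, 59.3, 61.1 and 58.4 CPM under drug and 57.8, 52.1, 30.7 and 26.4 CPM in DMSO. Its change differed between the arms in the fit with the day as a block, by 0.92 log2 units (adjusted p = 0.0351). Without the block the difference for Dhcr7 was not called.

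Most glycolytic genes fell under drug. Of 25 members of the glycolysis and hypoxia list that passed, 17 fell and 6 rose with day under selpercatinib, and in DMSO 5 were called lower and 6 higher of 26 tested. The difference between arms called none of the members, with or without the day as a block. Ldha, lactate dehydrogenase, had 716, 555, 379 and 293 CPM under drug and 1179, 1304, 619 and 839 CPM in DMSO. Pgk1, the first ATP-producing enzyme of glycolysis, had 324, 276, 212 and 159 CPM under drug and 404, 518, 421 and 509.9 CPM in DMSO. All 4 drug values of Pgk1 were below all 4 DMSO values, and its slope under drug was -0.26 log2 per day (SE 0.025, adjusted p = 7.75e-05). The 6 that rose were the aldolase Aldoc, the carbonic anhydrase Car9, the prolyl hydroxylases P4ha1 and P4ha2, and Vegfa and Ndrg1. Vegfa, the angiogenic growth factor, had 131, 189, 212 and 292 CPM under drug and 212, 373, 535 and 719.8 CPM in DMSO, with a slope of 0.27 log2 per day (SE 0.031, adjusted p = 0.000189). Ndrg1, a stress-responsive gene, had 80.8, 93.3, 102 and 151 CPM and a slope of 0.22 log2 per day (SE 0.024, adjusted p = 0.000141).

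Targets of NRF2, the factor of oxidant defence, fell in 9 of 19 cases and rose in none. In DMSO 6 of the 19 were called lower late against early and 2 higher. Gclc, the catalytic subunit of the rate-limiting enzyme of glutathione synthesis, had 45.3, 41.0, 29.9 and 22.7 CPM under selpercatinib and 76.7, 68.2, 57.3 and 76.3 CPM in DMSO, and a slope of -0.26 log2 per day (SE 0.03, adjusted p = 0.000198). Gsr, glutathione reductase, had 289, 244, 204 and 164 CPM under drug and a slope of -0.20 log2 per day (SE 0.024, adjusted p = 0.000247). Drug values of both genes were in falling order over the days. Aldh3a1, an aldehyde dehydrogenase, was outside this list and among the steepest falls of the arm, with 28.6, 11.8, 8.72 and 2.40 CPM under drug and 17.0, 13.5, 11.0 and 14.4 CPM in DMSO, a slope of -0.86 log2 per day (SE 0.056, adjusted p = 8.32e-06).

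Genes of the gut and gastric lineage fell as treatment went on. These genes mark an endodermal programme that lung adenocarcinomas can take up. Of 13 members that passed the filter, of 25 listed, 10 fell and none rose, beside 22.8% and 20.7% of all genes. In DMSO 5 of 14 tested were called lower late against early and none higher. The difference between arms called none of the members, with or without the day as a block. Cdx2, an intestinal homeobox factor, had 10.8, 4.10, 2.62 and 1.23 CPM under selpercatinib and 28.5, 22.0, 12.7 and 12.0 CPM in DMSO, with a slope of -0.78 log2 per day (SE 0.08, adjusted p = 0.000111). Hnf4a, a nuclear receptor of gut and liver, had 40.2, 29.3, 22.8 and 11.4 CPM under drug and 57.9, 65.2, 40.3 and 32.1 CPM in DMSO, with a slope of -0.45 log2 per day (SE 0.03, adjusted p = 8.79e-06). All 4 drug values of Cdx2, and those of Hnf4a from day 2 on, were below all 4 DMSO values of the gene. Foxa2, an endodermal forkhead factor, had 23.7, 23.6, 15.4 and 8.60 CPM and a slope of -0.39 log2 per day (SE 0.046, adjusted p = 0.00023). Lgals4, an intestinal galectin, was 1 of the 3 genes with an early drop, at 11.0, 2.25, 1.31 and 1.51 CPM. The secreted Tff and Gkn genes of this list did not exceed 0.049 CPM in the drug libraries.

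Transcripts held up by ERK did not follow a single course. Of 20 members of the ERK output list that passed the filter, 9 fell and 4 rose with day, and 4 stayed level while each drug day was at least 2-fold below DMSO of that day. Over all genes 213 were level and shifted up in this way (1.61%) and 83 level and shifted down (0.628%). In DMSO 5 of 22 members tested were called higher late against early and 2 lower. Dusp6, the phosphatase of ERK itself, had 57.5, 76.2, 65.5 and 75.5 CPM under selpercatinib and 285, 391, 369.9 and 382 CPM in DMSO. Etv4, an ETS factor, had 14.3, 14.7, 12.3 and 13.1 CPM under drug and 105, 103, 89.3 and 79.9 CPM in DMSO. For both the 4 drug values lay close together and far below every DMSO value, and the slopes of 0.069 log2 per day (SE 0.037, adjusted p = 0.16) for Dusp6 and -0.042 log2 per day (SE 0.036, adjusted p = 0.373) for Etv4 were not called. Spry4, a Sprouty inhibitor, had 2.25, 2.11, 2.13 and 2.30 CPM under drug and 23.9, 23.7, 32.0 and 39.4 CPM in DMSO, likewise without a called slope.

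Other ERK targets went on falling. Fosl1, the AP-1 subunit FRA1, had 4.14, 2.82, 1.05 and 0.404 CPM under selpercatinib and 42.2, 31.8, 30.2 and 33.9 CPM in DMSO. It fell with a slope of -0.88 log2 per day (SE 0.086, adjusted p = 8.06e-05), and its change differed from that in DMSO in the fit with the day as a block, by -2.06 log2 units (SE 0.40, adjusted p = 0.0461). Without the block the difference for Fosl1 was not called (edgeR adjusted p = 0.125). Dusp5, a nuclear ERK phosphatase, had 35.0, 26.8, 18.9 and 14.6 CPM under drug and 141, 129, 141 and 134 CPM in DMSO. Its slope was -0.32 log2 per day (SE 0.036, adjusted p = 0.000178) and its blocked difference between arms was -0.91 log2 units (adjusted p = 0.0412). Without the block the difference for Dusp5 was not called. Late drug values of both genes were below their early ones while the DMSO values held no such order. Ccnd1, cyclin D1, had 393, 324, 278 and 233 CPM under drug and 1211, 1376, 1198 and 1035 CPM in DMSO, a slope of -0.18 log2 per day (SE 0.025, adjusted p = 0.000546). Phlda1, another member that fell, had 157, 126, 88.1 and 67.6 CPM under drug and 220, 168, 145 and 106 CPM in DMSO. It was called lower late against early in DMSO as well, at -0.63 log2 units (SE 0.19, edgeR adjusted p = 0.0339). The members that rose were Egr1, Etv5, Ier3 and Spred3. Egr1, an immediate early zinc finger factor, had 10.4, 13.6, 19.5 and 19.2 CPM under drug and 57.8, 115, 95.1 and 110.1 CPM in DMSO, so that its late drug values remained below all 4 DMSO values. Spred3, a negative regulator of RAF activation, had 11.0, 11.1, 15.9 and 20.1 CPM under drug and 49.6, 46.7, 65.9 and 67.3 CPM in DMSO.

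Among genes with a mean of at least 5 CPM, several of the steepest rises were in genes known from muscle and connective tissue. Ogn, the small proteoglycan osteoglycin, had 0.382, 4.92, 19.2 and 91.1 CPM under selpercatinib and 0, 0.0254, 0.0420 and 0.0139 CPM in DMSO, where the first library listed 0. Cnn1, calponin of smooth muscle, had 2.46, 15.8, 45.7 and 144 CPM under drug and 0.144, 0.153, 0.280 and 0.0970 CPM in DMSO. Acta1, skeletal muscle actin, had 4.05, 9.56, 28.6 and 126 CPM under drug and 0.616, 1.09, 10.2 and 3.65 CPM in DMSO. Each drug library of these 3 genes was higher than the one before. Their slopes were 1.58 log2 per day (SE 0.14, adjusted p = 5.3e-05) for Ogn, 1.30 log2 per day (SE 0.13, adjusted p = 0.000113) for Cnn1 and 1.24 log2 per day (SE 0.042, adjusted p = 1.69e-06) for Acta1. Mybpc2, a myosin-binding protein of fast muscle, had 0.830, 3.39, 10.8 and 29.3 CPM under drug and 0.0393, 0.0127, 0.0420 and 0.0832 CPM in DMSO. Efhd1, a mitochondrial calcium-binding protein, had 0.804, 2.13, 5.67 and 23.9 CPM under drug and 0, 0.114, 0.827 and 1.57 CPM in DMSO. Acta1 was also called higher late against early in DMSO, by 3.01 log2 units (SE 0.51, edgeR adjusted p = 0.00605). The difference between arms was not called for Ogn, Cnn1, Acta1, Mybpc2 or Efhd1, with or without the day as a block. With the block their edgeR adjusted p was 0.299, 0.162, 0.899, 0.315 and 0.337. Without it the SE of the difference was 6.6, 2.0, 1.1, 2.4 and 1.5 log2 units. DMSO values of Ogn, Cnn1 and Mybpc2 were under 1 CPM on every day, so their change in DMSO rests on few reads. For these genes the test cannot decide whether the courses of the arms differed.

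The contractile list holds contractile genes and targets of serum response factor. Of its 25 members that passed, 11 rose and 3 fell by the slope, and 12 lay within 0.5 log2 units over the days. In DMSO 1 was called higher and 6 lower late against early, of 19 tested. The difference between arms called none of the members, with or without the day as a block. The risers included genes that are largely restricted to muscle. Acta2, smooth muscle actin, had 50.5, 181, 279 and 805 CPM under selpercatinib and 0.852, 0.458, 0.168 and 0.277 CPM in DMSO. Myl9, a myosin light chain, had 9.74, 25.8, 62.8 and 223 CPM under drug and 0.170, 0.191, 0.238 and 0.194 CPM in DMSO, and Myh11, smooth muscle myosin, had 0.119, 0.358, 1.49 and 14.1 CPM under drug and 0.131, 0.140, 0.322 and 0.347 CPM in DMSO. DMSO values of these 3 genes were under 1 CPM on every day, so they did not enter the DMSO test. Their slopes under drug were 0.92 log2 per day (SE 0.082, adjusted p = 5.03e-05), 1.11 log2 per day (SE 0.048, adjusted p = 1.86e-06) and 1.71 log2 per day (SE 0.062, adjusted p = 1.69e-06). Myh11 passed the filter only through its 2 late libraries, so its slope is no separate support for its rise. Actn1, a broadly expressed actin crosslinker, was level, with 2707, 2782, 2807 and 2928 CPM under drug and 1122, 939, 644 and 700.0 CPM in DMSO. Flna, Mylk and Smtn fell. Tagln, transgelin of smooth muscle, did not exceed 1.40 CPM under drug and did not pass the filter. The CArG box, the site of serum response factor, was found in 6 of 22 promoters of the list (27.3%), beside 1.81% of 27025 genes, on either strand. Since the list was written to hold targets of that factor, its share says nothing about the rise. The matches were not split by the course of the members. The box is shown in capitals in 2 of the steep risers, picked after the search, Acta1 (chr8:123894726-123895025, minus strand) and Myl9 (chr2:156775214-156775513, plus strand), both from RefSeq in GRCm38.p6.
Acta1: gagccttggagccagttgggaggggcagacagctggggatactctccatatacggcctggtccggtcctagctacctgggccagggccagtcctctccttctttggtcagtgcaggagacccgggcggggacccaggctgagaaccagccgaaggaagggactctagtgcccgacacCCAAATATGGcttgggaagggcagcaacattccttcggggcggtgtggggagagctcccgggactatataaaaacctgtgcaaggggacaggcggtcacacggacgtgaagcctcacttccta
Myl9: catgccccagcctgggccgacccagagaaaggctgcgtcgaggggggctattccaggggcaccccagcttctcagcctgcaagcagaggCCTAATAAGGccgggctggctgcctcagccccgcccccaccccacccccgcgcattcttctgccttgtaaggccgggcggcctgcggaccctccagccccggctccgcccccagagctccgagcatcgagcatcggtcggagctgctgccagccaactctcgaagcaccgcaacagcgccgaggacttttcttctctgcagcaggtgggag

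**Figure D3:**
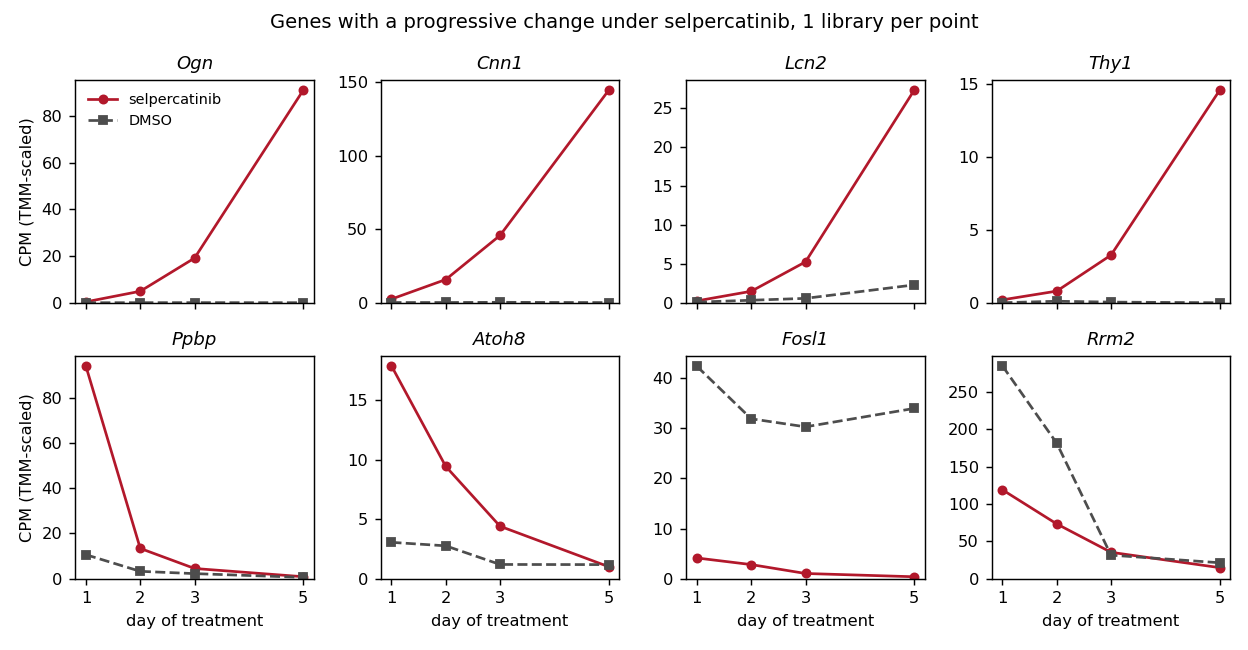
CPM after TMM scaling (y axis, linear, from 0) over the days of treatment (x axis) for 4 genes that rose (upper row) and 4 that fell (lower row) progressively under selpercatinib (red circles, solid) with the same genes in DMSO (grey squares, broken), 1 library per point. Ogn and Cnn1 reached 91.1 and 144 CPM on day 5 under selpercatinib and stayed under 1 CPM in DMSO, and Ppbp fell to 0.919 CPM on day 5, against 93.8 CPM on day 1.

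Markers of fibroblasts moved only in part with these genes. Of 12 fibroblast markers 3 passed the filter, and the summed levels of the whole list were 12.6, 19.4, 26.1 and 36.6 CPM on days 1, 2, 3 and 5 under selpercatinib and 6.85, 7.64, 8.84 and 9.02 CPM in DMSO. Thy1, a surface glycoprotein of fibroblasts and other cells, had 0.198, 0.795, 3.26 and 14.6 CPM under drug and 0, 0.102, 0.0420 and 0 CPM in DMSO, a slope of 1.41 log2 per day (SE 0.10, adjusted p = 1.05e-05). Thy1 passed the filter only through its 2 late libraries. Its slope and its place among the 3 are therefore no separate support for a rise. Col1a1, a collagen chain, had 7.05, 12.2, 15.9 and 14.4 CPM under drug and 3.12, 4.48, 4.86 and 3.96 CPM in DMSO, a slope of 0.22 log2 per day (SE 0.079, adjusted p = 0.0482). Fbn1, fibrillin, had 3.80, 4.48, 3.95 and 2.79 CPM under drug and 1.77, 1.14, 1.15 and 1.03 CPM in DMSO, a slope of -0.13 log2 per day (SE 0.063, adjusted p = 0.117) that was not called. The defining markers Lum and Dpt were at 0 in all 4 drug libraries, Col3a1 did not exceed 0.184 CPM and Dcn did not exceed 0.772 CPM. In bulk libraries a change in the share of cells cannot be told apart from a change of RNA per cell. Among 10 immune markers 2 passed the filter. Csf1r, the receptor of macrophage colony-stimulating factor, had 12.7, 11.2, 10.9 and 7.57 CPM under drug and 0.838, 0.865, 0.798 and 0.610 CPM in DMSO, above every DMSO value on all 4 days, and fell with a slope of -0.18 log2 per day (SE 0.04, adjusted p = 0.00574). Cd68, a lysosomal protein of macrophages, had 4.02, 4.55, 5.71 and 7.17 CPM under drug and 4.19, 5.30, 16.7 and 18.6 CPM in DMSO, and rose with a slope of 0.21 log2 per day (SE 0.045, adjusted p = 0.00478). Of the immune markers that did not pass, Ptprc was at no more than 0.0555 CPM and Adgre1 and Tyrobp were at 0 under drug. Summed levels of the immune list were 16.8, 15.9, 16.9 and 15.0 CPM on days 1, 2, 3 and 5 under selpercatinib and 5.35, 6.68, 17.8 and 19.5 CPM in DMSO. Among 10 endothelial markers Kdr and Egfl7 passed, neither with a called slope, and Pecam1 was at no more than 0.119 CPM under drug. The part of other cell types in the rises was not tested.

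Of 24 matrix genes 7 rose and 5 fell, near the shares of all genes (20.7% and 22.8%). Lox, a collagen-crosslinking oxidase, had 1.83, 7.57, 14.4 and 25.7 CPM under selpercatinib and 0.301, 0.407, 0.658 and 0.929 CPM in DMSO, with a slope of 0.82 log2 per day (SE 0.12, adjusted p = 0.000805). Tnc, the matrix glycoprotein tenascin C, had 467, 656, 841 and 1317 CPM under drug and 619.8, 673, 768 and 555 CPM in DMSO, with a slope of 0.37 log2 per day (SE 0.025, adjusted p = 1.23e-05). Vim, vimentin of mesenchymal filaments, fell instead, with 1199.7, 952, 724 and 535 CPM under drug, 1790.5, 1713, 1546 and 812 CPM in DMSO and a slope of -0.29 log2 per day (SE 0.027, adjusted p = 5.67e-05). Of 17 basement membrane genes 6 rose and 5 fell. Col4a5, a type IV collagen chain, had 115, 188, 265 and 343 CPM under drug and a slope of 0.38 log2 per day (SE 0.048, adjusted p = 0.000358). Lamb3, a laminin chain of epithelia, fell with a slope of -0.22 log2 per day (SE 0.023, adjusted p = 0.000125). Spp1, osteopontin, was level under drug at 117, 133, 159.7 and 113 CPM and higher in every DMSO library, at 738, 1109.5, 1800.1 and 2353 CPM.

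Alveolar type 1 markers, genes of the flat gas-exchange cell, rose in 9 of 18 cases and fell in 5. In DMSO 6 of 16 tested were called higher late against early and 1 lower. Ager, the membrane receptor that marks this cell in lung, had 1.09, 3.71, 6.88 and 14.0 CPM under selpercatinib and 0.917, 1.21, 1.58 and 1.94 CPM in DMSO, and a slope of 0.81 log2 per day (SE 0.10, adjusted p = 0.00024). Pdpn, podoplanin, had 12.3, 23.9, 33.7 and 47.1 CPM under drug and 2.16, 2.20, 3.38 and 3.49 CPM in DMSO, and a slope of 0.45 log2 per day (SE 0.06, adjusted p = 0.000453). Aqp5, a water channel of the same cell, went the other way, with 5.17, 3.38, 2.49 and 1.73 CPM under drug and a slope of -0.39 log2 per day (SE 0.06, adjusted p = 0.000928). Cav1, caveolin, fell too, with 152, 113, 88.6 and 67.7 CPM under drug and 94.4, 109.7, 141 and 109 CPM in DMSO. Hopx, another marker of this cell, did not pass the filter.

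Of 28 genes of epithelial adhesion 24 were level, beside 69.8% of all genes, and 6 rose and 5 fell by the slope. Cdh1, E-cadherin, had 1530.0, 1451, 1523 and 1555 CPM under selpercatinib and 749, 704, 715 and 744 CPM in DMSO, and a slope of 0.012 log2 per day (SE 0.024, adjusted p = 0.704). Cldn4, a claudin, had 982, 1115, 1288 and 1453 CPM under drug and a slope of 0.14 log2 per day (SE 0.025, adjusted p = 0.00196). Krt19, a simple-epithelial keratin, had 1967, 1508, 1215 and 812 CPM under drug and 1039, 1093, 718 and 722 CPM in DMSO, and was the list's progressive fall, with a slope of -0.32 log2 per day (SE 0.024, adjusted p = 2.29e-05). Krt18 rose slightly, with a slope of 0.13 log2 per day (SE 0.025, adjusted p = 0.00315). Of the list, 6 members were level and at least 2-fold above DMSO on every day.

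Genes of the amino acid response driven by ATF4 rose under drug. Of 25 members 18 rose and none fell, with a median slope of 0.19 log2 per day, and in DMSO 19 of 24 were called higher late against early (17% of all genes tested there). Trib3, a pseudokinase that feeds back on ATF4, had 29.3, 42.4, 64.6 and 92.1 CPM under selpercatinib and 30.0, 52.1, 153 and 196 CPM in DMSO. Ddit3, the stress factor CHOP, had 13.7, 17.7, 23.4 and 34.7 CPM under drug and 9.24, 11.6, 44.5 and 59.3 CPM in DMSO. Drug values of both genes were in rising order, and their late values were below the late DMSO values. Their slopes under drug were 0.41 log2 per day (SE 0.038, adjusted p = 5.8e-05) for Trib3 and 0.34 log2 per day (SE 0.029, adjusted p = 4.3e-05) for Ddit3. With the day as a block, 6 of 25 members had a lower change under drug than in DMSO (1.87% of 13941 genes were called in that direction) and none a higher one. Among them, Aldh1l2, a mitochondrial folate enzyme, had 6.55, 9.20, 13.4 and 17.1 CPM under drug and 9.12, 23.1, 95.7 and 95.5 CPM in DMSO, a difference of -1.74 log2 units (adjusted p = 0.0377). Without the block none of the 25 members was called. Nupr1, a small stress-induced chromatin protein, was higher under drug on every day, with 82.2, 164, 284 and 546 CPM under drug and 26.7, 53.3, 156 and 118 CPM in DMSO and a slope of 0.67 log2 per day (SE 0.048, adjusted p = 1.64e-05). The response element TGATGCAAT was found on either strand in 2 of 21 promoters of the list (9.52%), those of Fgf21 and Nupr1, beside 0.222% of 27025 genes. It is in capitals in the Nupr1 promoter (chr7:126625421-126625720, minus strand, RefSeq, GRCm38.p6), chosen for display after the search. Since the list was written to hold genes of the ATF4 response, its share of matches says nothing about the rise.
Nupr1: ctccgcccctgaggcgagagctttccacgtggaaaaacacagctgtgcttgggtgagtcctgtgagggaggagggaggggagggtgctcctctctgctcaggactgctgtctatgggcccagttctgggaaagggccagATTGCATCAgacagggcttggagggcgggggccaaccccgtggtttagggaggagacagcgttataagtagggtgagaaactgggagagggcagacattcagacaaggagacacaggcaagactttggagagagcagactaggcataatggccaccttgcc

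Of 27 lysosome and autophagy genes 18 rose and 1 fell. Hexa, the alpha subunit of beta-hexosaminidase, had 39.7, 63.9, 95.9 and 139 CPM under selpercatinib and 18.8, 25.4, 58.9 and 66.6 CPM in DMSO, with a slope of 0.44 log2 per day (SE 0.043, adjusted p = 8.21e-05). Gaa, acid alpha-glucosidase, had 89.3, 105, 152 and 203 CPM under drug and 61.4, 85.9, 176 and 216 CPM in DMSO, with a slope of 0.31 log2 per day (SE 0.03, adjusted p = 8.04e-05). Ctsd, a lysosomal aspartic protease, had 358, 480.5, 607 and 705 CPM under drug and 159.8, 186, 219.7 and 233 CPM in DMSO. The member that fell was Ctsh, a cysteine protease, with 82.4, 62.3, 49.1 and 40.4 CPM under drug and a slope of -0.25 log2 per day (SE 0.032, adjusted p = 0.000349). In DMSO 15 of 27 rose late against early.

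Interferon-stimulated genes rose in both arms. Of 29 members 18 passed the filter, of which 11 rose and 2 fell under drug, and in DMSO 11 of 17 were called higher. Bst2, the membrane tether of enveloped virions, had 20.2, 33.9, 48.3 and 73.6 CPM under selpercatinib and 8.73, 13.0, 25.4 and 45.3 CPM in DMSO. Usp18, which restrains the interferon receptor, had 5.19, 9.16, 11.6 and 17.4 CPM under drug and 1.62, 2.81, 4.01 and 6.10 CPM in DMSO. On each day the drug library was the higher one for both genes. Their slopes were 0.45 log2 per day (SE 0.041, adjusted p = 6.07e-05) for Bst2 and 0.40 log2 per day (SE 0.051, adjusted p = 0.00034) for Usp18. Cxcl10, a chemokine of the same response, stayed level under drug at 24.2, 25.2, 28.6 and 25.9 CPM, against 1.35, 1.59, 2.17 and 2.73 CPM in DMSO. Cd74, the class II invariant chain, had 1.05, 4.93, 10.5 and 17.4 CPM under drug and 0.262, 0.229, 1.19 and 2.20 CPM in DMSO, with a slope of 0.85 log2 per day (SE 0.14, adjusted p = 0.00147), while the class II genes H2-Aa, H2-Ab1 and H2-Eb1 did not exceed 0.0368 CPM under drug. H2-K1, a class I heavy chain, had 217, 254, 283 and 320.3 CPM and a slope of 0.14 log2 per day (SE 0.025, adjusted p = 0.0024). Reads of class I genes can be split between near-identical copies, so that value is uncertain. GAAA followed after any 2 bases by GAAA, letters of the interferon response element, was found on either strand in 6 of 15 promoters (40.0%), beside 3.99% of 27025 genes. The list was written to hold interferon-stimulated genes, so that share says nothing about the rise. The Bst2 promoter (chr8:71537423-71537722, minus strand, RefSeq, GRCm38.p6) holds 2 overlapping matches on the strand of the gene, in capitals, and was chosen after the search.
Bst2: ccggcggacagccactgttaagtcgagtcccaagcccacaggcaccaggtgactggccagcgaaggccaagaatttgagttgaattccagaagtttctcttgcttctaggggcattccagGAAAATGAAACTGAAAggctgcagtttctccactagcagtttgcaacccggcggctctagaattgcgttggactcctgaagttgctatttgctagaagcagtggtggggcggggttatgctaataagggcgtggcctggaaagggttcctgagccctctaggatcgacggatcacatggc

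Among the steep falls were those of 2 chemokines. Ppbp, a platelet-type CXC chemokine, had 93.8, 13.4, 4.55 and 0.919 CPM under selpercatinib and 10.6, 3.29, 2.28 and 0.624 CPM in DMSO, with a slope of -1.81 log2 per day (SE 0.14, adjusted p = 2.01e-05). Cxcl5, a neutrophil chemokine, had 24.6, 9.39, 5.53 and 2.71 CPM under drug and 4.07, 1.70, 1.13 and 1.70 CPM in DMSO, with a slope of -0.79 log2 per day (SE 0.075, adjusted p = 7.53e-05). Both were higher under drug than in DMSO on day 1 and lower at each step after it. Il1rn, the interleukin 1 receptor antagonist, had 20.8, 13.0, 7.47 and 2.14 CPM under drug and 32.6, 29.5, 12.6 and 7.64 CPM in DMSO. Atoh8, a basic helix-loop-helix factor, had 17.9, 9.45, 4.42 and 1.02 CPM under drug and 3.07, 2.77, 1.20 and 1.19 CPM in DMSO, and Ntm, a cell adhesion molecule, had 13.5, 8.59, 4.20 and 1.47 CPM under drug. Their slopes were -0.82 log2 per day (SE 0.044, adjusted p = 3.55e-06), -1.04 log2 per day (SE 0.047, adjusted p = 1.86e-06) and -0.82 log2 per day (SE 0.05, adjusted p = 6.73e-06). Lcn2, the iron-scavenging lipocalin, rose steeply, with 0.237, 1.47, 5.25 and 27.3 CPM under drug and 0.0786, 0.318, 0.560 and 2.29 CPM in DMSO, and a slope of 1.49 log2 per day (SE 0.095, adjusted p = 7.46e-06).

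Receptor tyrosine kinases other than Ret, which can carry growth signals when RET is blocked, rose in 7 of 20 cases and fell in 5, beside 20.7% and 22.8% of all genes. Ddr2, a collagen receptor, had 7.23, 16.4, 30.3 and 56.3 CPM under selpercatinib and 4.18, 8.25, 21.4 and 35.3 CPM in DMSO, with a slope of 0.70 log2 per day (SE 0.065, adjusted p = 5.91e-05). Egfr, the EGF receptor, had 156, 167, 186 and 220.4 CPM under drug and 66.4, 69.3, 84.3 and 71.3 CPM in DMSO, with a slope of 0.13 log2 per day (SE 0.022, adjusted p = 0.00198). Axl, a receptor for GAS6, fell, with 904, 716, 620.1 and 489 CPM under drug, 969, 1023, 1149 and 1143 CPM in DMSO and a slope of -0.22 log2 per day (SE 0.026, adjusted p = 0.000244). Met, the HGF receptor, had 255, 184, 161 and 130.5 CPM and a slope of -0.23 log2 per day (SE 0.032, adjusted p = 0.000551). Fgfr2, a fibroblast growth factor receptor, had 18.9, 20.6, 21.6 and 24.3 CPM under drug and 1.19, 1.81, 1.64 and 1.54 CPM in DMSO, so that every drug value was above every DMSO value and the change within the arm was small. Among 20 ligands of such receptors 5 rose and 8 fell. Gas6, the ligand of the Axl family, had 6.79, 15.8, 28.6 and 55.3 CPM under drug and 4.27, 6.43, 10.3 and 11.8 CPM in DMSO, with a slope of 0.72 log2 per day (SE 0.064, adjusted p = 4.82e-05). Hbegf, a ligand of the EGF receptor, had 94.1, 83.4, 58.8 and 45.4 CPM under drug and 219, 197, 227 and 195 CPM in DMSO. Its slope was -0.27 log2 per day (SE 0.03, adjusted p = 0.000156), and its blocked difference between arms was -0.80 log2 units (SE 0.12, adjusted p = 0.0351). Without the block the difference for Hbegf was not called (edgeR adjusted p = 0.134).

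Of 19 genes of PI3K and FOXO feedback 8 rose and 3 fell, beside 20.7% and 22.8% of all genes. In DMSO 8 of 21 tested were called higher late against early and none lower. Txnip, a thioredoxin-binding arrestin that follows glucose supply, had 14.5, 16.5, 37.7 and 95.4 CPM under selpercatinib and 14.9, 12.1, 50.4 and 1.58 CPM in DMSO. Its drug values were in rising order and its DMSO values moved up and down. Fbxo32, a ubiquitin ligase of muscle wasting, had 23.3, 30.0, 45.3 and 55.2 CPM under drug and a slope of 0.32 log2 per day (SE 0.041, adjusted p = 0.000371). Of 22 targets of p53, 10 rose and 2 fell, beside the same shares of all genes. In DMSO 6 of 21 tested p53 targets were called higher late against early and none lower. Gdf15, a stress-induced cytokine, had 1.90, 3.95, 5.77 and 10.5 CPM under drug and 5.08, 12.9, 36.0 and 33.3 CPM in DMSO, with a slope of 0.57 log2 per day (SE 0.062, adjusted p = 0.00014). Cdkn1a, the cell cycle inhibitor p21, had 27.8, 21.9, 20.5 and 19.2 CPM under drug and a slope of -0.12 log2 per day (SE 0.034, adjusted p = 0.0187). The 13 mitochondrially encoded genes were all level under drug, although mt-Co1 and mt-Co3 rose by the slope, and their sum was 20292, 21078, 19149 and 22676 CPM on days 1, 2, 3 and 5 under selpercatinib and 17554, 15157, 14482 and 19802 CPM in DMSO.

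The remaining lists had members called in both directions, and their counts are to be read beside the 20.7% of all genes that rose and the 22.8% that fell. Of 19 genes of TGF-beta signalling 5 rose and 7 fell. Id1, an inhibitor of basic helix-loop-helix factors, had 63.1, 50.02, 31.5 and 17.4 CPM under selpercatinib and 70.0, 56.4, 31.9 and 43.7 CPM in DMSO, a slope of -0.48 log2 per day (SE 0.03, adjusted p = 7.74e-06). Tgfb2, a ligand of that pathway, had 96.9, 109, 131 and 158 CPM under drug and 2.92, 1.74, 2.69 and 2.30 CPM in DMSO, a slope of 0.18 log2 per day (SE 0.024, adjusted p = 0.000455). Every drug value of Tgfb2 lay above every DMSO value. Of 24 targets of YAP and TEAD 8 rose and 6 fell, and among these 6 Igfbp3, a carrier of insulin-like growth factors, had 424, 300.1, 188 and 131 CPM under drug and 847, 771, 709 and 783 CPM in DMSO, a slope of -0.43 log2 per day (SE 0.037, adjusted p = 4.38e-05). Of 15 genes of the unfolded protein response of the endoplasmic reticulum 3 rose and 4 fell, close to those shares. Of 20 immediate early genes 6 rose and 4 fell, with Klf4, a zinc finger factor, at 84.4, 71.2, 49.6 and 42.7 CPM under drug and a slope of -0.25 log2 per day (SE 0.035, adjusted p = 0.00054). Of 14 genes of the BCL2 family 5 rose and 3 fell, with Bik, a BH3-only protein, at 2.71, 4.19, 6.42 and 7.51 CPM under drug and 0.642, 0.738, 1.13 and 1.11 CPM in DMSO. Of 18 chemokines and cytokines 5 rose and 6 fell, with Cx3cl1, the membrane-bound chemokine fractalkine, at 26.4, 36.1, 46.0 and 66.3 CPM under drug and a slope of 0.32 log2 per day (SE 0.028, adjusted p = 4.11e-05). Of 16 alveolar type 2 markers 7 passed the filter, of which Etv5 rose and Nkx2-1 and Fasn fell.

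The early and transient genes were few enough to name. Dgkk, a diacylglycerol kinase, had 153, 313, 389 and 352 CPM under selpercatinib and 55.0, 59.2, 61.7 and 42.4 CPM in DMSO. Serpinb9b, a serpin, had 47.7, 110.5, 145 and 124 CPM under drug and 2.53, 3.19, 2.62 and 1.84 CPM in DMSO. Both were at least 2-fold higher on day 2 than on day 1 and days 3 and 5 lay within 0.5 log2 units of day 2, and their slopes were not called (adjusted p = 0.0507 and 0.0678 in edgeR). The early falls were those of Ackr3, a scavenger receptor of chemokines, Gcnt4, a glycosyltransferase, and Lgals4, named outside the rule since their mean is under 5 CPM. Apob, the apolipoprotein of lipoprotein particles, had 120.3, 168, 245 and 121 CPM under drug and 28.8, 28.6, 16.7 and 8.80 CPM in DMSO, highest on day 3 under drug. Slc30a1, the zinc exporter of the plasma membrane, had 8.54, 20.7, 6.66 and 6.14 CPM under drug and 12.6, 15.1, 5.95 and 6.93 CPM in DMSO, highest on day 2 in both arms. Lce1h, a late cornified envelope gene, had 3.99, 9.84, 8.82 and 4.31 CPM under drug, and Bhlha9 was the other transient gene. Vgf, a neuropeptide precursor, had 3.97, 4.89, 4.65 and 11.0 CPM under drug, and with the chemokine Ccl5 it made up the genes with a step at day 5. With a step of 1.5-fold in place of 2-fold, 82 genes were early and 11 transient.

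**Figure D4:**
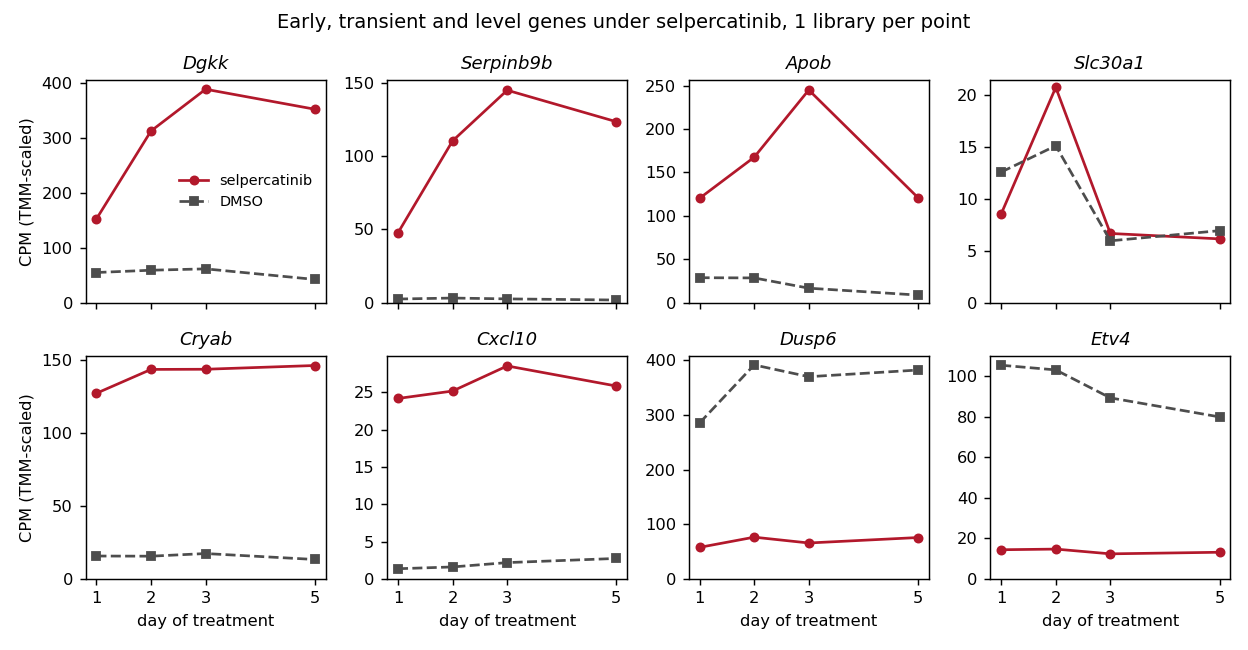
CPM after TMM scaling (y axis, linear, from 0) over the days of treatment (x axis), for 2 early and 2 transient genes (upper row) and 4 genes that were level and shifted from DMSO (lower row), with selpercatinib as red circles and solid lines and DMSO as grey squares and broken lines, 1 library per point. Dgkk had 153 CPM on day 1 and 313 CPM on day 2 under selpercatinib, and Dusp6 lay between 57.5 and 76.2 CPM under selpercatinib, against at least 285 CPM in DMSO.

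Level genes with a large and lasting offset from DMSO are named by the smallest difference from DMSO over the days, a rule added after the values were seen. Cryab, a small heat shock protein, had 127, 143, 144 and 146 CPM under selpercatinib and 15.6, 15.5, 17.3 and 13.2 CPM in DMSO. Sh2d4a, an SH2 domain adaptor, had 97.9, 112, 118 and 123 CPM under drug and 7.93, 10.7, 8.98 and 7.46 CPM in DMSO, and Prex2, a RAC exchange factor, had 54.9, 57.1, 60.9 and 46.8 CPM under drug and 4.83, 7.30, 6.37 and 2.77 CPM in DMSO. All drug values of these 3 genes were far above all DMSO values and lay close to each other from day 1 on. Spon2, a secreted matrix protein, was of the same kind. Rapgef3, a cAMP-activated exchange factor, had 5.98, 4.36, 5.57 and 5.94 CPM under drug and 28.0, 23.03, 36.5 and 48.4 CPM in DMSO, and Mmd and Sh2d5 were likewise lower.

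Whether a change within the drug arm differs from the course of DMSO was tested with the difference of the 2 late minus early changes. Of 13941 genes tested over the 8 libraries, edgeR called 5 (0.0359%), all with a lower change under selpercatinib, and 2544 (18.2%) had an unadjusted p under 0.05. They are 4 genes known as hosts of small nucleolar RNAs or as noncoding RNAs, Gas5, Snhg12, Zfas1 and 1110038B12Rik, and Ncam1, a neural adhesion molecule. Gas5 had 93.8, 97.5, 88.3 and 95.2 CPM under selpercatinib and 134, 144, 359 and 462 CPM in DMSO, a difference of -1.63 log2 units (SE 0.18, edgeR adjusted p = 0.0492). Zfas1 had 28.8, 29.6, 28.7 and 30.3 CPM under drug and 40.4, 42.2, 211 and 249.6 CPM in DMSO, a difference of -2.46 log2 units (SE 0.15, edgeR adjusted p = 0.00198). For both, the 4 drug values lay close together, and the late DMSO values were above the early ones, by 1.56 log2 units (SE 0.15, adjusted p = 0.00255) for Gas5 and 2.48 log2 units (SE 0.13, adjusted p = 0.000492) for Zfas1. Ncam1 had 117, 109.8, 91.6 and 83.6 CPM under drug and 28.4, 27.8, 51.4 and 47.6 CPM in DMSO, a difference of -1.19 log2 units (SE 0.13, edgeR adjusted p = 0.0492).

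The batch field of the labels holds the day of each library, which is also its time of treatment and is shared by the arms. With the day as a block the same difference called 410 genes (2.94%), 150 with a higher change under drug (1.08%) and 260 with a lower change under drug (1.87%). Of the 2730 genes that rose over the days under drug, 2562 were tested in DMSO, where 1270 were called higher late against early and 29 lower. Of the 3020 that fell, 2956 were tested in DMSO, where 1476 were called lower and 75 higher. The comparison within DMSO called 4437 of 13368 genes (33.2%), 2279 higher and 2158 lower, with 6116 (45.8%) at an unadjusted p under 0.05. The genes named next from the blocked fit were chosen after its values were seen, by size, from those with late and early drug values that did not overlap. Without the block none of them was called.

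Foxj1, the master factor of motile cilia, had 56.7, 96.6, 138 and 163 CPM under selpercatinib and 6.79, 7.95, 2.97 and 3.12 CPM in DMSO. Its blocked difference was 2.29 log2 units (SE 0.20, adjusted p = 0.0114). Sema3d, a secreted guidance protein, had 12.1, 25.4, 43.4 and 61.7 CPM under drug and 0.734, 0.776, 0.364 and 0.416 CPM in DMSO, a blocked difference of 2.49 log2 units (SE 0.36, adjusted p = 0.0341). Pclo, a scaffold of the presynaptic zone, had 1.81, 3.88, 8.96 and 15.4 CPM under drug and 1.44, 1.18, 1.02 and 1.11 CPM in DMSO, with 2.43 log2 units (SE 0.47, adjusted p = 0.0464). These 3 genes were in rising order over the drug days, and every drug value lay above every DMSO value. Zdhhc2, a palmitoyltransferase, had 42.8, 73.5, 89.7 and 108 CPM under drug and 28.5, 24.6, 15.0 and 9.27 CPM in DMSO, and Mbnl3, a splicing factor, had 24.3, 33.1, 43.0 and 42.7 CPM under drug and 18.3, 12.0, 6.75 and 5.21 CPM in DMSO. For both, the ratio of drug to DMSO was higher on each later day.

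In the other direction, Acan, the proteoglycan aggrecan, had 30.2, 11.7, 7.08 and 3.60 CPM under selpercatinib and 193, 167, 206 and 183 CPM in DMSO, a blocked difference of -2.00 log2 units (SE 0.39, adjusted p = 0.0461). Glrp1, a gene for a glutamine repeat protein, had 9.05, 7.20, 4.44 and 2.43 CPM under drug and 11.8, 20.7, 28.5 and 36.3 CPM in DMSO, with -2.32 log2 units (SE 0.47, adjusted p = 0.0487). Cdh13, a cadherin without a cytoplasmic domain, had 32.7, 23.3, 16.9 and 12.4 CPM under drug and 18.4, 27.0, 50.8 and 44.1 CPM in DMSO, with -2.02 log2 units (SE 0.32, adjusted p = 0.0361). Drug values of the 3 genes were in falling order over the days. Macrod1, a hydrolase of ADP-ribose, had 4.09, 5.69, 7.39 and 15.1 CPM under drug and 2.16, 5.67, 26.2 and 34.1 CPM in DMSO, and rose in both arms, by less under drug, with a blocked difference of -1.93 log2 units (SE 0.34, adjusted p = 0.042). Acan had 2.28 and 2.40 CPM in the selpercatinib-resistant cultures and 492 and 501 CPM in the parental cultures, a table that was scaled apart.

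**Figure D5:**
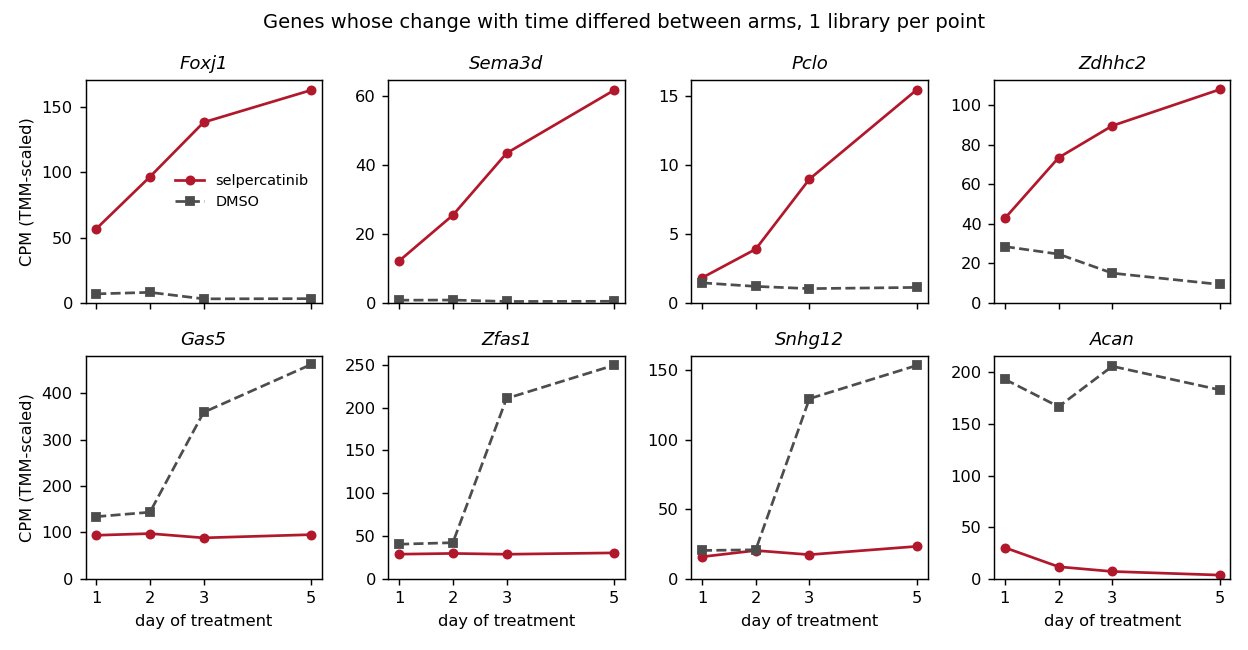
CPM after TMM scaling (y axis, linear, from 0) over the days of treatment (x axis), for 4 genes with a higher change under selpercatinib (upper row) and 4 with a lower one (lower row) than in DMSO, with selpercatinib as red circles and solid lines and DMSO as grey squares and broken lines, 1 library per point. Foxj1 had 163 CPM on day 5 under selpercatinib and 3.12 CPM in DMSO, and Gas5 had 95.2 CPM under selpercatinib and 462 CPM in DMSO.

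In the late against early comparison itself, genes outside the lists were among those with the lowest p, none of them called. Malat1, a nuclear RNA, had 154, 206, 481 and 404 CPM under selpercatinib and 123, 160.1, 426 and 387 CPM in DMSO, a late minus early difference of 1.30 log2 units (SE 0.17, adjusted p = 0.0955). Eppk1, an epithelial plakin, had 37.9, 42.3, 86.3 and 117 CPM under drug and 14.1, 15.2, 20.1 and 17.3 CPM in DMSO, a difference of 1.34 log2 units (SE 0.16, adjusted p = 0.0955). Lrp1, an endocytic receptor, had 56.9, 76.3, 143 and 181 CPM under drug and 28.4, 51.1, 148 and 228 CPM in DMSO, with 1.29 log2 units (SE 0.18, adjusted p = 0.0955). In each of these 3 genes both late values lay above both early ones. Pcdh18, a protocadherin, had 30.5, 28.7, 18.4 and 18.7 CPM under drug, with -0.68 log2 units (SE 0.092, adjusted p = 0.0955), and Srsf3, a splicing factor, had 192, 188, 133 and 117 CPM, with -0.61 log2 units (SE 0.089, adjusted p = 0.0955). Airn is an RNA antisense to Igf2r, and since the strand setting of the counting is not given in the sources used here, its values of 7.55, 7.56, 13.8 and 16.8 CPM cannot be assigned to one of the 2 genes.

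The genes named by the slope and the progressive rule, all with a mean of at least 5 CPM, were also looked up in the resistant and parental cultures, which form another table. Of the 6 risers, 4 were higher in both selpercatinib-resistant libraries than in both parental ones and 2 were lower. Of the 7 that fell, 6 were higher in the resistant libraries and 1 overlapped. The share of all genes with such an order was not counted, so these counts have no background. Some values were low. Mybpc2, among the higher, had 0.24 and 0.153 CPM in the resistant cultures and 0.0877 and 0.0265 CPM in the parental ones. Acta1, which was lower, had 0.03 and 0.0763 CPM against 0.351 and 0.438 CPM. Efhd1, also lower, had 0.06 and 0.28 CPM against 0.386 and 0.478 CPM. Lcn2 had 1115 and 1051 CPM in the resistant cultures and 22.6 and 19.4 CPM in the parental ones. Ogn had 13.9 and 10.8 CPM in the resistant cultures and 0 and 0.0398 CPM in the parental ones. Cnn1 had 6.86 and 7.03 CPM in the resistant cultures and 0 and 0.0133 CPM in the parental ones. Ppbp had 3.30 and 2.79 CPM in the resistant cultures and 1.18 and 0.955 CPM in the parental ones.

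Genes at the edge of the filter were of low level. There were 362 genes with exactly 2 libraries at 1 CPM or more, whose highest library had a median of 1.43 CPM, and 412 with 1 such library, whose highest had a median of 1.17 CPM. Of the 13218 genes, 507 did not pass the same filter in the DMSO libraries. A gene under 1 CPM on both early days, such as Thy1, Myh11 or Car9, could pass only through its late libraries. The reverse held for a gene under 1 CPM on both late days.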

How the data were processed

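RNA of the cultures was sequenced from stranded poly(A) libraries, per the labels' protocols. The deposited tables hold raw counts per gene; STAR, edgeR and build mm10 are named in the submitters' processing notes, whereas no source used here names the counter or its strand setting. Gene names matched GENCODE M21 for 55391 of 55415 rows; 24 numeric names held 0.163% to 0.183% of counts and stayed out. Symbols were recased for 8921 rows, and 0 columns were left unused.

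CPM were computed from the counts after TMM scaling over the 8 libraries of the time course. edgeR 4.0.16 in R 4.3.3 was used with glmQLFit and glmQLFTest, on genes with 1 CPM in 2 libraries of the fit; 4-library fits leave 2 residual degrees of freedom. SE is the log2 change divided by the root of F, an approximation. Adjusted p-values are Benjamini-Hochberg over all genes tested, called under 0.05. Patterns used log2(CPM + 1). DESeq2 1.42.0 and limma 3.58.1 served as alternatives, beside other scaling and filters, single libraries left out and the day as a block. Deviations from the arm means correlated between same-day libraries of the 2 arms with r between 0.515 and 0.670 over 10668 genes, and between different days that are both early or both late with r between 0.479 and 0.618, so the correlations do not single out the day; the pairing rests on the batch field of the labels, which holds the day. Fits were tested on simulated data.

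Named genes are the 12 per direction with the lowest p late against early, the 6 per direction by slope, 4 per pattern, and up to 4 per list; slope and pattern genes have a mean of at least 5 CPM. The level and shifted genes, those of the blocked fit and other members of the 33 lists were named after their values were seen. Members, lists and tests were chosen with earlier results of these data known. List counts for the slope were added, since the late against early comparison called none.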

Additional observations from a re-analysis of the deposited data

Results flagged for a closer look

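The change from early to late days differed between the arms for 5 genes, by edgeR's test of the difference itself. The difference, selpercatinib minus DMSO, was -2.46 for Zfas1, -1.43 for 1110038B12Rik, -2.61 for Snhg12, -1.63 for Gas5 and -1.19 for Ncam1, on the log2 scale. All 5 were called higher late against early in DMSO. Under drug Snhg12 rose and Ncam1 fell with day, and no slope was called for the other genes. Zfas1, Snhg12 and Gas5 overlap or neighbour other genes, and counting without strand could mix their reads, which was not tested. With 1 or 2 libraries in a group, no library could be tested against the others of its group.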

How the results depend on the processing

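The late against early count under selpercatinib was 0 with TMM or RLE scaling, a mean of 5 CPM, limma and a shared spread, but 2857 with DESeq2, 1674 with no filter, and between 0 and 1179 with a library left out, the last without day 3. The slope count of 5750 was 1893 with the spread shared over 8 libraries, and between 3612 (without day 1) and 5547 with a library left out; other settings gave 4792 to 6925. The DMSO count of 4437 was between 1282 (without day 1) and 4332 (2771 without day 5) with a library left out. The difference between arms, 5 genes, was 792 with DESeq2, between 1 and 152 with a library left out, the last without DMSO day 2, and 410 with the day as a replicate block, since the paired libraries share a day. Early genes numbered 82 with a step of 1.5-fold and 2 with a mean of 5 CPM, against 5; transient genes numbered 11 with that step, against 4. The cause of these shifts was not tested. Among the 191 named genes, 77 lost the slope call with the shared spread, 22 without day 1 and 19 without day 5. With 1 library per day, no value here has a repeat of its day, and low genes near 1 CPM rest on few counts.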

Other observations

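Genes that host small nucleolar RNAs form a family outside the lists, grouped after its values were seen. The family holds Gas5, Zfas1 and the Snhg genes, whose spliced RNAs are short-lived carriers of intronic guide RNAs. Of 13 that passed the filter under selpercatinib, 3 rose and 3 fell with day, about the shares of all genes (20.7% and 22.8%). In DMSO 8 were called higher and 1 lower late against early, beside 17% and 16.1% of all genes. With the day as a block, 6 of the 13 had a lower change under drug than in DMSO and none a higher one, beside 1.87% and 1.08% of all genes. Snhg1 had 30.8, 29.2, 21.6 and 19.7 CPM under selpercatinib on days 1, 2, 3 and 5, and 52.3, 41.8, 113 and 88.0 CPM in DMSO. Snhg5 had 17.8, 15.9, 12.2 and 11.3 CPM under drug and 35.3, 25.7, 89.8 and 70.3 CPM in DMSO. Both fell under drug and were higher on the late days than on the early days of DMSO. Snhg6 had 23.5, 28.6, 27.8 and 31.9 CPM under drug, where it rose with a slope of 0.10 log2 per day (SE 0.03, adjusted p = 0.03), and 31.9, 34.0, 68.8 and 57.1 CPM in DMSO. Snhg9 went against the family in DMSO, with 2.29, 3.23, 1.99 and 1.53 CPM under drug and 6.39, 3.60, 2.30 and 1.82 CPM in DMSO.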
